A study of Homo sapiens with 4 samples.

Results

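The cells described here are the G2 and mitotic cells of BT474 cultures, an established human breast cancer line positive for the estrogen receptor and with HER2 amplified. They were chosen within each library as the 15% of cells with the highest summed UMIs of 10 genes (UBE2C, CCNB1, HMMR, AURKA, CENPF, ASPM, PLK1, CENPA, CDC20 and TOP2A) per 10000 UMIs, a quantity called the marker level below. A barcode counted as a cell with at least 5000 UMIs, at least 500 genes and at most 50% mitochondrial UMIs. By this rule 2229 of 14867 cells were G2 and mitotic cells, and the other 12638 are called other cells. There were 4 groups with 1 library each, all at 4 h: fulvestrant (100 nM, which blocks the estrogen receptor and marks it for breakdown), neratinib (200 nM, which binds the kinases of the HER family covalently), both drugs together at these doses, and DMSO, the vehicle. The G2 and mitotic cells numbered 509 with fulvestrant, 514 with neratinib, 570 with both drugs and 636 with DMSO, and the shares are equal by construction, so nothing here speaks to how many cells were in G2 or mitosis. With 1 library per group there was no replicate error and no test between groups. Cells were not used as replicates, and every interval below is a 95% interval that covers counting error only.

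A cell that has copied its DNA spends G2 preparing to divide. Cyclin B with the kinase CDK1 starts mitosis, Aurora and Polo kinases with motor and kinetochore proteins build the spindle and attach the chromosomes, and the anaphase promoting complex with CDC20 and UBE2C ends it by degrading the cyclin. Many genes of this phase are transcribed late in the cycle under B-MYB and FOXM1 and are held down in resting cells by the DREAM complex, which binds a promoter element called the CHR, often beside CCAAT boxes bound by NF-Y. In breast cancer cells driven by estrogen and HER2, both receptors act mainly on the decision to enter the cycle, through MYC and cyclin D1, so cells already past DNA replication are a natural place to ask whether the drugs reach them.

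The promoter letters below show what the marker genes have in common, and set beside them KPNA2 and EGR1, whose responses to neratinib are described further on. PLK1 (the Polo kinase) is shown at chr16:23678769-23678888, CDC20 at chr1:43358861-43358980, HMMR (a spindle-associated hyaluronan receptor) at chr5:163460512-163460631, KPNA2 (an importin that carries proteins into the nucleus) at chr17:68035615-68035734 and EGR1 (an immediate early transcription factor) at chr5:138465359-138465478. Each is the 120 bases before the gene's start, on the + strand, 5′ to 3′, from RefSeq on GRCh38.p14. Capitals mark matches on either strand to the CHR (TTTGAA), to the CCAAT box (CCAAT) and to the CArG box, the site of serum response factor. The CArG box is found in EGR1 alone among these 5. Both KPNA2 and EGR1 hold the letters of a CHR on the opposite strand, and EGR1 holds no CCAAT box.
PLK1: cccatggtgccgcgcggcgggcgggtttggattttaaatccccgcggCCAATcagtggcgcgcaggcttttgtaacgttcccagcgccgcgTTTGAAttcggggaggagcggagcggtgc
CDC20: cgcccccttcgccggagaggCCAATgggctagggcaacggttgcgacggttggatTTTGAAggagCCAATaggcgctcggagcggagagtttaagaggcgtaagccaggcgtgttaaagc
HMMR: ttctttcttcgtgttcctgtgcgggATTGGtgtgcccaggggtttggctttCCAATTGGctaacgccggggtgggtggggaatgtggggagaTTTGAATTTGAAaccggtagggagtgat
KPNA2: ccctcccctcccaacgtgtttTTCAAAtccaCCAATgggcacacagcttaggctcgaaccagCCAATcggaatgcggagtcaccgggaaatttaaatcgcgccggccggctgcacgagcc
EGR1: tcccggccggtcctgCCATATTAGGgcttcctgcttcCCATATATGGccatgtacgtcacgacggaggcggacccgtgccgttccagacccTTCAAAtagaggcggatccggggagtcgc
Among the 250 bases before the start, 6 of the 8 marker genes found in the promoter table held a CHR (ASPM, CDC20, CENPA, HMMR, PLK1 and TOP2A), as did 13.3% of 35116 promoters, and 8 of 8 held a CCAAT box, as did 32% of them. None of the 8 held a CArG box, which 1.16% of promoters did. AURKA and UBE2C had no entry. These are matches of letters, not measured binding.

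The chosen cells carried the marks of their label. The marker level had a median of 47.3 with fulvestrant, 59.8 with neratinib, 51.4 with both drugs and 50.1 with DMSO in the G2 and mitotic cells, and of 1.35, 1.53, 1.48 and 1.34 in the other cells of the same libraries. The lowest marker level let in was 24.9, 30.4, 23.3 and 27.4 in that order of libraries. The level falls off smoothly with rank, so the edge is a range and not a gap: cells ranked from 10 to 15% had medians of 32.1, 38.9, 30.9 and 33.8, and those ranked from 15 to 20%, just outside, had 18.7, 24.4, 19.0 and 22.6. These values chose the cells and are a description. The G2 and mitotic cells also held more RNA, with a median of 33678, 34009, 33434 and 33820.5 UMIs, which is 1.503, 1.58, 1.57 and 1.55 times that of other cells. Their mitochondrial share was 15.2%, 19.3%, 19.4% and 15.01%, against 16.9%, 21.3%, 21.3% and 16.4% in other cells, so it was higher in both libraries with neratinib in either class of cells. Barcodes of at most 99 UMIs, which hold free RNA and not cells, had a marker level of 14.2, 17.1, 15.6 and 14.6 over their summed UMIs, above that of other cells (4.59, 5.71, 4.84 and 5.07) and below that of G2 and mitotic cells (50.9, 62.7, 56.8 and 52.97). Doublets were not called. Libraries shared 22 barcode sequences among 44 cells, 2 of them G2 and mitotic cells.

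**Figure D1:**
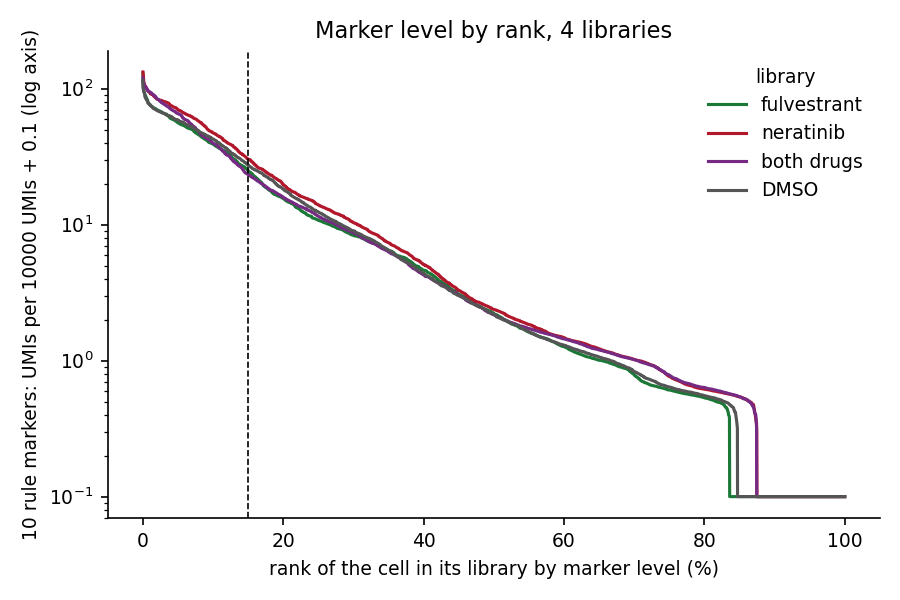
Marker level (UMIs of the 10 marker genes per 10000 UMIs, plus 0.1, log axis) of every cell against its rank within its library in percent, with 1 line per library and a dashed line at 15%. Cells left of the line are the G2 and mitotic cells, and the level passes 24.9, 30.4, 23.3 and 27.4 there with fulvestrant, neratinib, both drugs and DMSO without a step.

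Genes that the rule did not use are described next, although many move with the genes of the rule. Of 4660 genes that averaged at least 20 UMIs per 1000000 (CPM) in both classes, few were at least 1.5-fold above other cells. These numbered 186, 262, 234 and 183 in fulvestrant, neratinib, both-drug and DMSO libraries. All 66 further G2 and mitosis genes of a list averaged at least 20 CPM in the G2 and mitotic cells. All 66 were more than 1.5-fold above other cells in each library, with a median log2 ratio of 2.47, 2.59, 2.66 and 2.52 in the same order. Only 28 of the 66 reached 20 CPM in both classes. All 28 were past 1.5-fold in each library, with medians of 2.32, 2.28, 2.36 and 2.29. The steepest was PIF1, a DNA helicase, with 53.6, 85.9, 73.2 and 58.4 CPM against 1.07, 1.39, 0.934 and 1.602 CPM in other cells. The kinesin KIF14, the kinetochore motor CENPE, the centrosome kinase NEK2 and the spindle proteins DLGAP5 and FAM83D followed. PIF1 and these genes averaged below 20 CPM in other cells, so they are not among the 4660. Genes of the G1 to S transition lay at the other end: UNG, a uracil glycosylase of DNA repair, had 6.41, 6.13, 6.999 and 7.597 CPM against 26.4, 25.1, 27.7 and 27.3 CPM in other cells, and CCNE2 (cyclin E2), MCM5 and MCM6 (helicase subunits of replication origins) were also among the lowest. UNG, CCNE2, MCM5 and MCM6 averaged below 20 CPM in G2 and mitotic cells and are likewise outside the 4660. Because the cells were chosen by genes that move with those named here, the contrast is a description and has no test. Luminal markers were plentiful, with KRT8, KRT18 and KRT19 each at 976 CPM or more in every library and the 9 listed genes summing to 7301, 5263, 4737 and 7441 CPM, a lower sum in both libraries with neratinib. The basal keratins KRT5 and KRT14, the leukocyte gene PTPRC and the endothelial gene PECAM1 had no UMI in the G2 and mitotic cells of any library. The basal and mesenchymal list was not absent: its 7 genes, 2 of them at 0, summed to 31.2, 35.8, 38.1 and 33.5 CPM with fulvestrant, neratinib, both drugs and DMSO, of which VIM, the filament protein vimentin, made up 28.6, 33.6, 36.8 and 30.97 CPM. The summed immune list lay between 0.914 and 1.43 CPM there, the endothelial list between 1.35 and 2.32, and the fibroblast list, where 5 of 6 genes were at 0 in every library, between 7.20 and 9.64.

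The question put to these cells was whether each drug reached them and whether it did so as in the rest of the culture. UMIs were summed over the cells of each class in each library and scaled to CPM, and a gene was compared where its mean over the 4 libraries was at least 20 CPM in both classes, which 4660 genes reached. Each drug was read in 2 pairs of libraries that have none in common: fulvestrant against DMSO and both drugs against neratinib for fulvestrant, neratinib against DMSO and both drugs against fulvestrant for neratinib. A ratio of at least 1.5-fold (0.58 on the log2 scale) is called higher or lower here, a rule of size and not a test. Reads of G2 and mitotic cells were fewer, 16387647, 16800982, 18574185 and 20796707 UMIs with fulvestrant, neratinib, both drugs and DMSO against 66361566, 65372912, 71740228 and 81123483 UMIs in other cells, so their ratios are the less precise ones and pass a fixed size by counting error more easily.

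With fulvestrant, estrogen receptor targets were lower in the G2 and mitotic cells, led by MYC, and few other genes differed. In them 4 genes (0.0858%) were higher and 11 genes (0.236%) were lower with fulvestrant than with DMSO, while in other cells 0 were higher and 13 (0.279%) were lower. Both drugs against neratinib gave 4 higher (0.0858%) and 12 lower (0.258%) in G2 and mitotic cells, 16 in all (0.343%). Past 1.5-fold in both pairs were 2 higher genes (0.0429%) and 10 lower genes (0.215%) in the G2 and mitotic cells. All 10 lower ones were among the 11 that passed in both pairs in other cells, which are 100% of the first list and 90.9% of the second.

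MYC, the transcription factor through which estrogen drives growth, changed most. It had 10.3 CPM with fulvestrant, 54.6 with neratinib, 4.31 with both drugs and 71.3 with DMSO in G2 and mitotic cells, and 17.03, 62.4, 6.36 and 77.1 CPM in other cells. Both libraries with fulvestrant lay far below both libraries without it, in either class. That is 6.96-fold lower with fulvestrant than with DMSO in the G2 and mitotic cells (log2 ratio -2.80, interval -3.04 to -2.57) and 4.53-fold lower in other cells. MYC was lowered further in G2 and mitotic cells than in other cells, with a difference of the log2 ratios of -0.62 (interval -0.87 to -0.37), and less so in the other pair (-0.37, interval -0.73 to -0.01). Free RNA held 15.9 CPM of MYC with fulvestrant, 68.7 with neratinib, 5.82 with both drugs and 92.3 with DMSO. This was above the G2 and mitotic cells in each library, and its part in the difference was not tested. MYC and SCGB2A2 were the 2 genes whose response differed between the classes by 1.5-fold with fulvestrant against DMSO (0.0215% in each direction), and neither did so in both pairs, in which 0 genes passed.

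Other fulvestrant targets were also lower in G2 and mitotic cells. TSKU, a secreted proteoglycan, had 19.7 CPM with fulvestrant, 50.9 with neratinib, 6.73 with both drugs and 67.7 with DMSO, a log2 ratio of -1.78 with fulvestrant against DMSO, beside -1.69 in other cells. The homeobox gene MSX2 had a log2 ratio of -1.39, and of -1.06 in other cells, and the difference between the classes, -0.33 and -0.41 in the 2 pairs, had intervals off 0 in both. AREG, the EGFR ligand amphiregulin, had log2 ratios of -1.05 and -1.41 in the 2 pairs, SIAH2 (a ubiquitin ligase) -0.98 and -0.83, PMAIP1 (the BCL2 family member NOXA) -0.92 and -1.18, ZNF703 (a luminal zinc finger gene) -0.77 and -1.25, and GREB1, an estrogen-induced cofactor of the receptor, -0.69 and -0.89. These genes were named by the size of their ratios or came from a fixed set, so their order over libraries is a description. Both libraries with fulvestrant lay below both without it for all of these but AREG. AREG had 27.0 CPM with fulvestrant, 11.4 with neratinib, 4.31 with both drugs and 55.8 with DMSO. GREB1 had 30.3, 59.9, 32.2 and 48.8 CPM in that order, and 20.4, 48.7, 27.5 and 40.5 CPM in other cells. The progesterone receptor gene PGR was lowered less in G2 and mitotic cells than in other cells in both pairs. It had 89.4 CPM with fulvestrant, 150 with neratinib, 87.8 with both drugs and 126 with DMSO in G2 and mitotic cells, log2 ratios of -0.50 and -0.77, against -0.88 and -0.91 in other cells. Its response was smaller in the G2 and mitotic cells by 0.39 (interval 0.28 to 0.49) and by 0.14 (interval 0.04 to 0.24).

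Over all genes 0.236% were lower with fulvestrant than with DMSO in G2 and mitotic cells and 0.279% in other cells. Of 43 listed estrogen receptor targets, 24 were measured in both classes. With fulvestrant 9 of them were lower and 0 higher in G2 and mitotic cells, against 10 and 0 in other cells. Their median log2 ratio was -0.34 in G2 and mitotic cells and -0.39 in other cells, while that of all 4660 genes was 0.00 in both. ESR1, the receptor gene itself, was below the level filter, with 11.5, 19.999, 10.6 and 15.3 CPM in the order used so far. The genes higher past 1.5-fold in both pairs belonged to sterol metabolism. MSMO1, a demethylase of cholesterol synthesis, had 65.6 CPM with fulvestrant, 35.8 with neratinib, 56.5 with both drugs and 37.6 with DMSO, log2 ratios of 0.80 and 0.66, and INSIG1, which holds the sterol sensor in the endoplasmic reticulum, had 41.4, 31.4, 48.3 and 25.4 CPM, log2 ratios of 0.71 and 0.62. In other cells these genes went the same way by 0.43 and 0.50 (MSMO1) and by 0.49 and 0.57 (INSIG1), short of the threshold. The sterol list as a whole had 18 measured genes, a median of 0.28 in the G2 and mitotic cells and of 0.25 in other cells.

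SCGB2A2, the secreted breast protein mammaglobin, differed most between the classes with fulvestrant. It had 44.4 CPM with fulvestrant, 39.5 with neratinib, 37.6 with both drugs and 33.4 with DMSO in the G2 and mitotic cells, and 59.3, 75.7, 57.9 and 82.8 CPM in other cells. Its class difference was 0.89 in fulvestrant against DMSO and 0.32 in both drugs against neratinib. Over all genes, 63 had a class difference of the same sign in both fulvestrant pairs with both intervals off 0, 43 higher and 20 lower in G2 and mitotic cells.

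**Figure D2:**
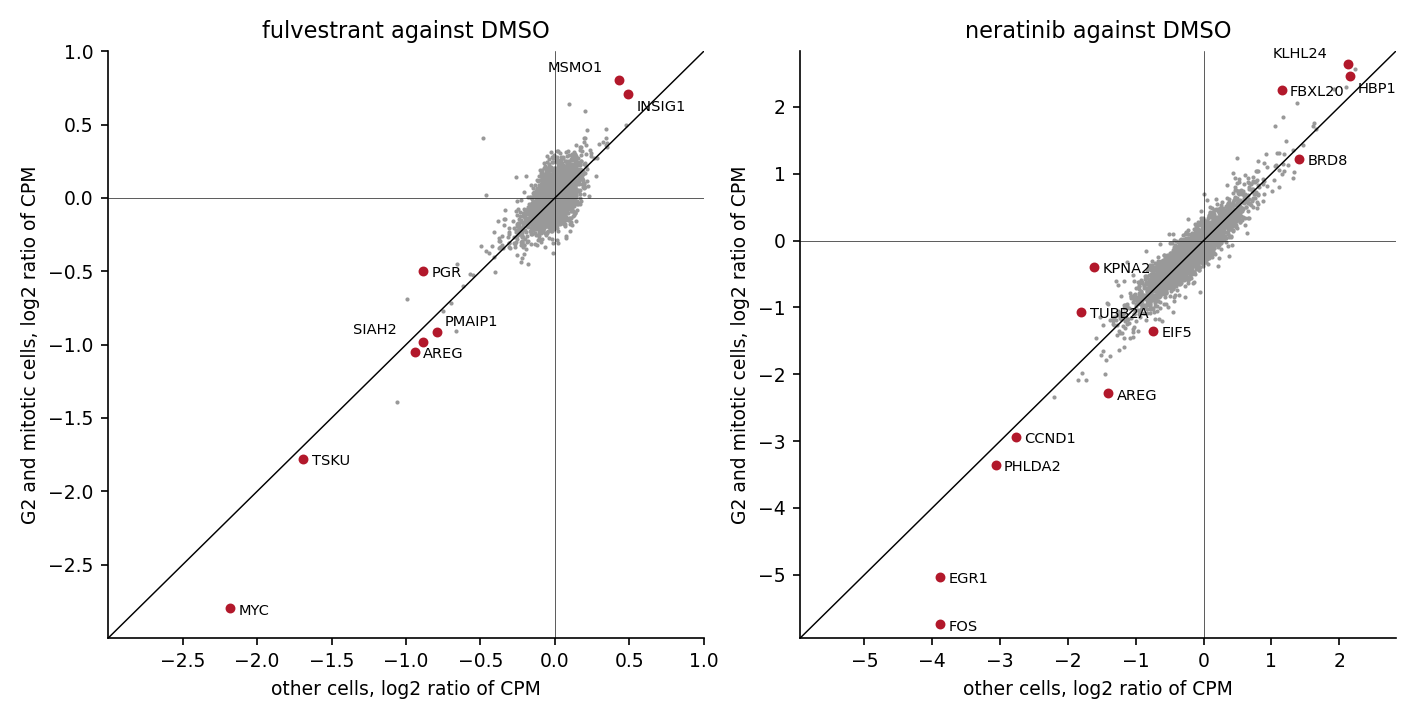
Each grey point is 1 of 4660 genes, placed by its log2 ratio of CPM in other cells (x axis) and in G2 and mitotic cells (y axis), for fulvestrant against DMSO (left) and neratinib against DMSO (right). The diagonal marks equal responses and named genes are in red: MYC lies below it at -2.80 against -2.18, and KPNA2 far above it at -0.39 against -1.62.

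Many more genes passed 1.5-fold with neratinib than with fulvestrant in the G2 and mitotic cells. Listed ERK output genes and many MYC and ribosome biogenesis genes were lower, and many FOXO and quiescence genes were higher. The genes of division differed little, but they move with the genes that chose the cells. With neratinib 116 genes (2.49%) were higher and 449 genes (9.64%) lower than with DMSO, and with both drugs 105 (2.25%) were higher and 469 (10.1%) lower than with fulvestrant. Other cells of the same pairs had 100 (2.15%) and 497 (10.7%), then 98 (2.1%) and 485 (10.4%). The excess of lower genes depends on the scaling. Under total-count scaling the median gene lay at -0.16 in G2 and mitotic cells and -0.19 in other cells with neratinib against DMSO, and under median-of-ratios scaling the same pair gave 199 higher and 248 lower genes in G2 and mitotic cells, and both drugs against fulvestrant gave 181 and 257. Past 1.5-fold in both pairs were 94 higher (2.02%) and 350 lower (7.51%) in the G2 and mitotic cells, and 83 (1.78%) and 410 (8.8%) in other cells. The shared ones were 67 higher, 71.3% of the first list and 80.7% of the second, and 273 lower, 78% and 66.6%.

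Genes picked in other cells from one pair were then read in G2 and mitotic cells from the pair with no library in common. Of 484 genes lower in other cells with both drugs than with fulvestrant, all 484 were also below 0 in G2 and mitotic cells with neratinib against DMSO and 311 were past 1.5-fold, with a median of -0.66 beside -0.75 in other cells. Of 98 higher ones, all 98 were above 0 and 76 past 1.5-fold, with a median of 0.83 beside 0.79. Over all 4660 genes the median in G2 and mitotic cells with neratinib against DMSO was itself below 0, at -0.16. Past 1.5-fold there, 9.64% of all genes were lower and 2.49% higher. For fulvestrant, 13 genes lower in other cells with both drugs than with neratinib were all below 0 in G2 and mitotic cells with fulvestrant against DMSO, and 10 were past 1.5-fold, with a median of -0.91 beside -0.88. Read the other way, from neratinib against DMSO to both drugs against fulvestrant, 495 of 496 lower genes went the same way.

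Output genes of the ERK pathway, the kinase cascade below HER2, were lower in the G2 and mitotic cells. CCND1, cyclin D1, had 43.4 CPM with neratinib and 31.6 with both drugs, against 272 with fulvestrant and 333 with DMSO, 7.68-fold lower with neratinib than with DMSO (log2 ratio -2.94, interval -3.05 to -2.83) beside 6.80-fold in other cells. PHLDA2, a small pleckstrin homology protein, had 4.05 and 4.41 CPM in the 2 libraries with neratinib, against 42.1 and 41.5 CPM with fulvestrant and DMSO. Of 22 listed ERK output genes 7 were measured in both classes. In the G2 and mitotic cells 6 were lower in both pairs, with medians of -2.34 and -2.36. In other cells 6 were lower, with medians of -2.20 and -2.31. Over all genes 9.64% and 10.1% were lower in G2 and mitotic cells in the 2 pairs, with medians of -0.16 and -0.17. DUSP6, an ERK phosphatase and classic readout of the pathway, was below the level filter and had 0.893 CPM with neratinib (15 UMIs) and 0.485 with both drugs (9 UMIs), against 12.3 with fulvestrant and 10.6 with DMSO. Of 14 measured immediate early genes 7 were lower in each pair in the G2 and mitotic cells, with medians of -0.49 and -0.81 beside -0.33 and -0.51 in other cells.

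The FOXO and quiescence list ran the other way. Its genes are switched on when AKT signalling drops and FOXO factors enter the nucleus. With neratinib 12 of 18 measured genes were higher and 0 lower in G2 and mitotic cells in each pair, with medians of 0.95 and 0.90. In other cells 11 and 10 were higher, with medians of 0.91 and 0.88. Over all genes 2.49% and 2.25% were higher in G2 and mitotic cells, with medians of -0.16 and -0.17. HBP1, a repressor of cell cycle genes, had 129 CPM with neratinib and 127 with both drugs, against 28.4 with fulvestrant and 23.5 with DMSO, 5.50-fold higher with neratinib than with DMSO. KLHL24, a ubiquitin ligase adaptor, had 125 and 134 CPM with neratinib and both drugs, against 21.2 and 20.1 CPM with fulvestrant and DMSO. In both genes the 2 libraries with neratinib lay above the 2 without it. This is a description, since KLHL24 was named by the size of its ratios and HBP1 came from the fixed set. FBXO32 (atrogin-1) was 4.82-fold and CREBRF, a regulator of CREB3, 5.90-fold higher with neratinib than with DMSO, beside 3.80-fold and 4.71-fold in other cells. ERBB3, the HER2 partner receptor, had 137 and 131 CPM with neratinib and both drugs against 70.2 and 65.8 CPM with fulvestrant and DMSO in the G2 and mitotic cells, a log2 ratio of 1.06 beside 1.11 in other cells.

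Many genes of ribosome biogenesis were lower. Over all genes 9.64% and 10.1% were lower in the 2 pairs. Of 25 measured MYC and ribosome biogenesis genes, 15 were lower with neratinib than with DMSO and 10 with both drugs than with fulvestrant in G2 and mitotic cells, and 13 and 8 in other cells, with 0 higher in any. In the 2 fulvestrant pairs, by contrast, 0 of the 25 were lower or higher in G2 and mitotic cells, with medians of -0.16 and 0.02. Over all genes 0.236% and 0.258% were lower in those pairs. The helicase DDX21 of rRNA transcription had 53.2 CPM with neratinib and 59.0 with both drugs, against 114 with fulvestrant and 146 with DMSO, and ODC1, the first enzyme of polyamine synthesis, had 24.6 and 24.98 against 61.2 and 58.2 CPM. Of 15 measured ATF4 targets 5 were lower in each pair and 0 higher, against 6 and 5 lower in other cells, and the other 10 did not pass 1.5-fold. TRIB3, a pseudokinase, was among the lower ones at -1.30 and -1.36. BRD8, the bromodomain subunit of the TIP60 acetyltransferase complex, was higher: 101 CPM with neratinib and 97.6 with both drugs, against 39.7 with fulvestrant and 43.5 with DMSO. Its log2 ratios were 1.22 (interval 1.11 to 1.34) and 1.30 (interval 1.17 to 1.43) in the G2 and mitotic cells, beside 1.41 and 1.44 in other cells. In every library BRD8 was more abundant in G2 and mitotic cells than in other cells, by a log2 ratio of 1.14, 1.08, 1.00 and 1.26 with fulvestrant, neratinib, both drugs and DMSO. Of 21 measured TIP60 complex and BET genes, 2 were higher in each neratinib pair, BRD8 and MBTD1 (a reader of histone methylation, 1.04 and 0.95), and 1 and 2 were lower. The list median, -0.15 and -0.19, lay close to that of all genes, -0.16 and -0.17, of which 2.49% and 2.25% were higher and 9.64% and 10.1% lower.

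**Figure D3:**
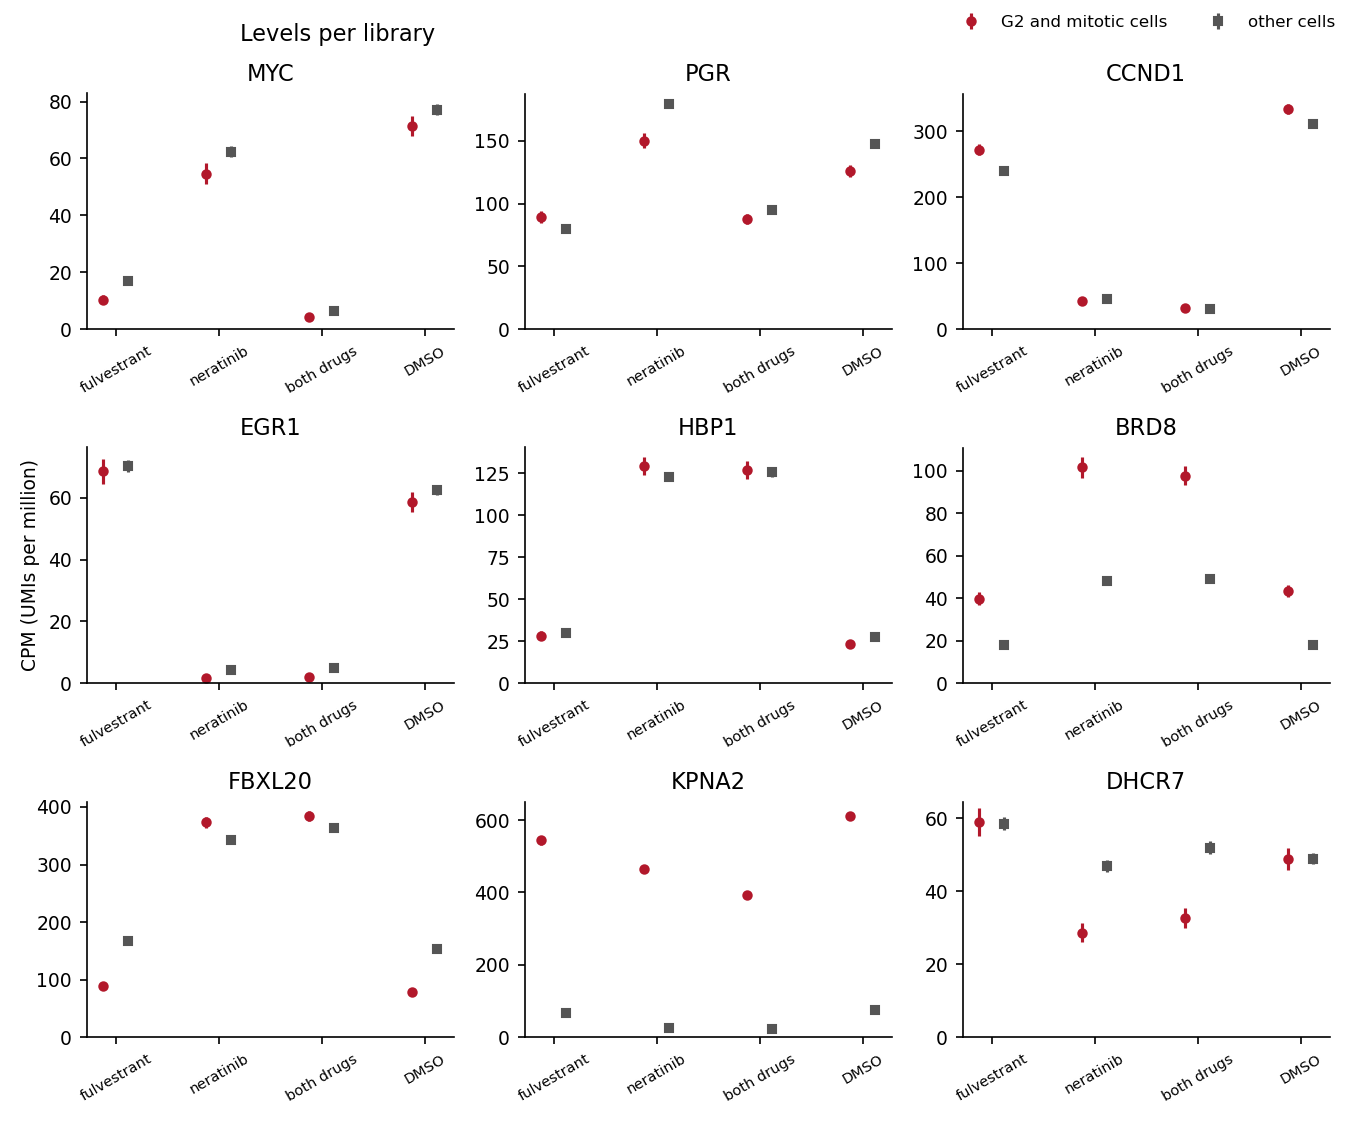
CPM of 9 genes per library, with fulvestrant, neratinib, both drugs and DMSO from left to right, in G2 and mitotic cells (red circles) and other cells (grey squares). Bars are 95% counting intervals and every axis starts at 0. MYC is low in both libraries with fulvestrant, CCND1 and EGR1 in both with neratinib, and KPNA2 and BRD8 are higher in G2 and mitotic cells in all 4.

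Genes of the division machinery differed little between libraries in the G2 and mitotic cells. These cells were chosen in each library by genes that move with them, which tends to hold their levels near each other. The values therefore cannot show whether a drug acts on division. Of the 66 further G2 and mitosis genes, 28 were measured in both classes, and 1 was higher and 1 lower with neratinib than with DMSO in G2 and mitotic cells, with a median of 0.10 while that of all genes was -0.16. HMGB2, a chromatin protein, was the higher one, with 1413 CPM with neratinib and 1279 with both drugs, against 794 with fulvestrant and 791 with DMSO (log2 ratios 0.84 and 0.69). TUBB4B, a beta tubulin, was the lower one (-0.60 and -0.67). CDK1 had 419 and 398 CPM with neratinib and both drugs against 350 and 385 with fulvestrant and DMSO, MKI67 had 187 and 172 against 171 and 176, and the transcription factor FOXM1 had 93.7 and 86.7 against 96.7 and 92.3. These differ by far less than 1.5-fold. Among regulators of the CDK1 switch, the inhibitory kinase WEE1 was at 0.44 and 0.31, the inhibitory kinase PKMYT1 at -0.52 and -0.60 and the activating phosphatase CDC25B at -0.49 and -0.60, of which PKMYT1 and CDC25B passed 1.5-fold in the second pair. The genes of the rule were part of the choice of cells, and their values are given as a description: ASPM had 888 and 831 CPM with neratinib and both drugs against 553 and 558 CPM with fulvestrant and DMSO, HMMR had 426 and 402 against 263 and 274, and CDC20 had 198 and 172 against 271 and 289. The other 7 differed by less than 1.5-fold in both pairs.

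S phase genes in the G2 and mitotic cells had a median close to that of genes in general. Over all genes 9.64% and 10.1% were lower in the 2 neratinib pairs, and 2 of 24 S phase genes were lower in each and 0 higher. Of these genes, 16 lay above other cells in their response to neratinib against DMSO and 22 in both drugs against fulvestrant, while over all genes 2577 and 2415 of 4660 did. The median was -0.17 and -0.11 in G2 and mitotic cells, beside -0.16 and -0.17 over all genes, and it was -0.26 and -0.29 in other cells, beside -0.19 and -0.18. RRM2, a subunit of ribonucleotide reductase, had log2 ratios of -0.94 and -1.10 in the G2 and mitotic cells, and of -1.43 and -1.61 in other cells.

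Few genes had responses to neratinib that differed by 1.5-fold or more between the 2 classes, while smaller differences were more common. The class difference, the log2 ratio in G2 and mitotic cells minus that in other cells, was past 1.5-fold for 23 genes (0.494%) with neratinib against DMSO, 14 higher (0.3%) and 9 lower (0.193%), and for 23 (0.494%) with both drugs against fulvestrant, 12 higher (0.258%) and 11 lower (0.236%). It was so for 15 (0.322%) in both pairs, 8 higher (0.172%) and 7 lower (0.15%). Most class differences were smaller: 898 genes had the same sign in both pairs with both intervals off 0, 598 of them higher and 300 lower in G2 and mitotic cells.

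The 8 with a higher class difference were of 2 kinds. In the first, the gene was lower with neratinib in other cells and less so in G2 and mitotic cells. KPNA2 had 544, 466, 392 and 611 CPM in the G2 and mitotic cells with fulvestrant, neratinib, both drugs and DMSO, and 66.7, 24.8, 21.9 and 75.9 CPM in other cells. Its log2 ratios were -0.39 and -0.47 in the G2 and mitotic cells and -1.62 and -1.61 in other cells, class differences of 1.23 (interval 1.14 to 1.32) and 1.14 (interval 1.04 to 1.23). Its abundance in G2 and mitotic cells over other cells was thus 4.23 and 4.16 on the log2 scale with neratinib and both drugs, against 3.03 and 3.01 with fulvestrant and DMSO. KPNA2 belongs to the G2 and mitosis genes. Its promoter, shown above, holds CCAAT boxes and, like that of EGR1, the letters of a CHR on the opposite strand. The part of these letters in its response was not tested. The tubulin genes TUBA1C (class differences 0.81 and 0.74), TUBB2A (0.74 and 0.73) and TUBB4B (0.69 and 0.64) followed the same form, and since tubulin genes share long stretches of sequence, how reads were split among them is uncertain. FAM111B, a protease gene of the replication period, was at -0.15 and 0.00 in G2 and mitotic cells and at -0.85 and -0.79 in other cells. TUBB2A stayed past 1.5-fold in its class difference in both pairs under each of 11 other settings of the processing. The class differences of KPNA2, TUBA1C, TUBB4B and FAM111B depended on which cells were kept. With at most 20% mitochondrial UMIs, which left 197 G2 and mitotic cells with neratinib, 219 with both drugs, 431 with fulvestrant and 550 with DMSO, KPNA2 had 0.48 and 0.73, TUBA1C 0.37 and 0.50, TUBB4B 0.36 and 0.36 and FAM111B 0.026 and -0.19. Free RNA held 205 CPM of KPNA2 with fulvestrant, 133 with neratinib, 132 with both drugs and 222 with DMSO. This was above the level of KPNA2 in other cells in each library. KPNA2, TUBA1C and TUBB4B also rise with the genes that chose the cells. TUBA1C lay 1.74 to 2.55 and TUBB4B 1.55 to 2.25 above other cells on the log2 scale. The part of free RNA, of the mitochondrial share and of the choice of cells in these differences was not tested.

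In the second kind, the gene was higher with neratinib, and more so in G2 and mitotic cells. FBXL20, a substrate adaptor of an SCF ubiquitin ligase, had 373 CPM with neratinib and 385 with both drugs in the G2 and mitotic cells, against 88.3 with fulvestrant and 78.5 with DMSO. In other cells it had 342 and 364 CPM, against 167 and 154 CPM. With neratinib and both drugs FBXL20 was near equal in the G2 and mitotic cells and other cells (log2 ratio 0.13 and 0.08), while with fulvestrant and DMSO it was lower in the G2 and mitotic cells (-0.92 and -0.97). The response was 4.75-fold in G2 and mitotic cells and 2.22-fold in other cells, a class difference of 1.10 (interval 1.02 to 1.18) and, in the other pair, of 1.00 (interval 0.91 to 1.08). It was past 1.5-fold in both pairs under each of 11 other settings of the processing. PNRC1, a nuclear receptor coactivator, had the same form, with 174 and 185 CPM against 46.9 and 41.8 CPM in the G2 and mitotic cells and log2 ratios of 2.05 and 1.98 beside 1.38 and 1.23 in other cells. YPEL2, a small zinc-binding protein of the yippee family, had 1.86 and 1.57 beside 1.17 and 0.98. Of the 11 other settings, PNRC1 stayed past 1.5-fold in its class difference in 9 and 10 in the 2 pairs and YPEL2 in 10 and 10.

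Among the 7 with a lower class difference were EGR1, FOS, AREG, DHCR7, EIF5 and RPL22L1. EGR1 had 1.79 CPM with neratinib (30 UMIs) and 1.88 with both drugs (35 UMIs) in the G2 and mitotic cells, against 68.5 with fulvestrant and 58.5 with DMSO, and 4.24 and 4.78 CPM against 70.3 and 62.4 CPM in other cells. It was 32.7-fold lower with neratinib than with DMSO in G2 and mitotic cells (log2 ratio -5.03, interval -5.61 to -4.51) and 14.7-fold lower in other cells, with class differences of -1.15 (interval -1.70 to -0.60) and -1.31 (interval -1.82 to -0.80). Free RNA held 81.9 CPM of EGR1 with fulvestrant, 9.49 with neratinib, 7.18 with both drugs and 90.2 with DMSO, more than either class of cells with neratinib, and its part in the class difference was not tested. FOS, another of the immediate early genes, rests on 13 and 32 UMIs in the neratinib and both-drug libraries, and its class differences of -1.86 and -0.63 are correspondingly loose (intervals -2.68 to -1.04 and -1.19 to -0.07). AREG had 11.4 and 4.31 CPM against 27.0 and 55.8 CPM, class differences of -0.88 and -0.66, the second of which was -0.22 against other cells from the lower 60% of the marker level. EIF5, which sets off GTP hydrolysis at the start codon, had 160 and 180 CPM against 428 and 406 CPM, log2 ratios of -1.35 and -1.25 beside -0.74 and -0.63 in other cells, and RPL22L1, a paralog of a ribosomal protein, had -1.06 and -0.86 beside -0.45 and -0.20. Both lie near the threshold: of 11 other settings, EIF5 kept a class difference past 1.5-fold in 7 and 8 in the 2 pairs, with values as near 0 as -0.54 and -0.52, and RPL22L1 in 7 and 10, with values as near 0 as -0.40 and -0.57.

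DHCR7 is an enzyme of cholesterol synthesis. The gene, whose product makes cholesterol from its immediate precursor, had 28.6 CPM with neratinib and 32.6 with both drugs in G2 and mitotic cells, against 58.9 with fulvestrant and 48.9 with DMSO, and 47.0 and 52.0 against 58.6 and 48.9 CPM in other cells. Its log2 ratios were -0.78 and -0.85 in the G2 and mitotic cells and -0.06 and -0.17 in other cells. Of 18 measured sterol genes 14 responded to neratinib less upward or more downward in G2 and mitotic cells than in other cells against DMSO, and 13 against fulvestrant, beside 2083 and 2245 of all 4660. The list median with neratinib against DMSO was -0.13 in the G2 and mitotic cells, -0.18 in S phase cells and -0.03 in remaining cells, and with both drugs against fulvestrant -0.20, -0.12 and -0.13, so the first pair did not set the G2 and mitotic cells apart from S phase cells. DHCR7 had -0.23 and -0.32 in S phase cells, between the G2 and mitotic cells and the remaining cells at -0.005 and -0.13. MSMO1, of the same list, had -0.07 and -0.22 beside 0.41 and 0.48.

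**Figure D4:**
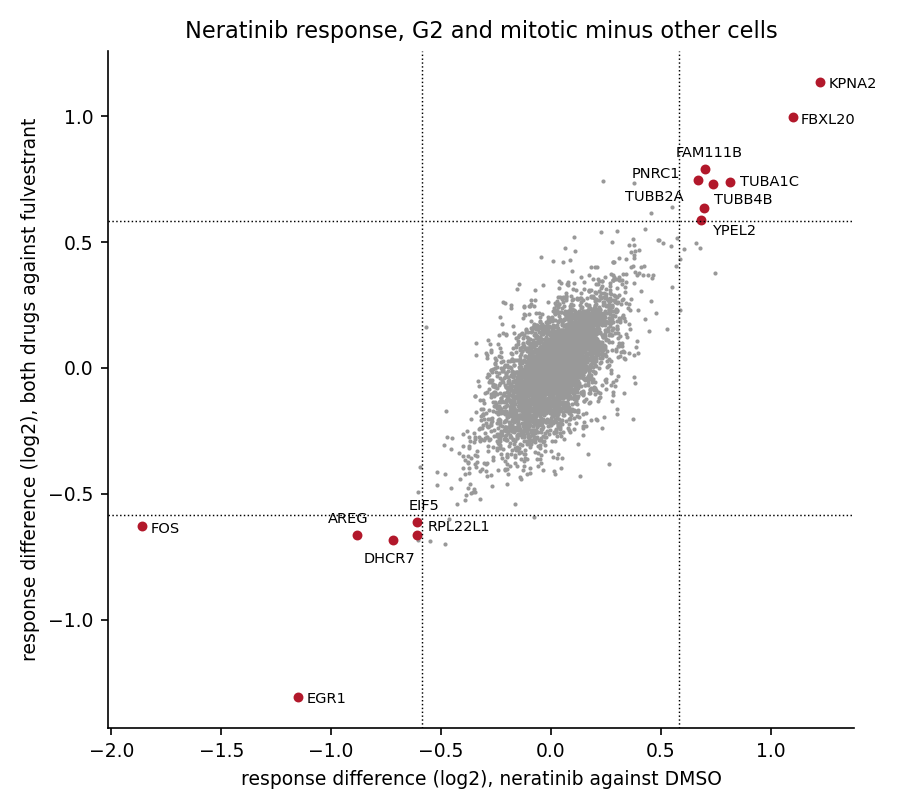
Class difference in the response to neratinib (log2 ratio in G2 and mitotic cells minus that in other cells) of 4660 genes, for neratinib against DMSO (x axis) and both drugs against fulvestrant (y axis), which have no library in common. Dotted lines mark 1.5-fold, and named genes past it in both pairs are in red, from KPNA2 at 1.23 and 1.14 to FOS at -1.86 and -0.63.

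For some genes the response to neratinib against DMSO changed with the marker level by degrees. The log2 ratio of KPNA2 with neratinib against DMSO was -0.25 in the 5% of cells with the highest marker level, -0.60 in those ranked from 10 to 15%, -1.46 in those from 20 to 40% and -2.28 in those from 70 to 100%. Just outside the edge, from 15 to 20%, KPNA2 had 97.3 CPM with neratinib against 194.5 with DMSO. FBXL20 ran from 2.62 in the top 5% through 1.72 and 1.44 on either side of the edge to 1.14 in the lowest band. EIF5 ran from -1.31 through -1.35 and -1.10 to -0.49, and DHCR7 from -0.69 through -0.71 and -0.57 to 0.19. BRD8 ran from 1.24 through 1.24 and 1.27 to 1.51. So in neratinib against DMSO the edge at 15% lies on a slope for the first 4 genes. EIF5 and DHCR7 had close values in the top 5% and just inside the edge. KPNA2 itself rises with the genes that set the bands, and the part of this in its slope was not tested. In both drugs against fulvestrant KPNA2 was less even, with -1.25 just inside the edge and -1.15 just outside.

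**Figure D5:**
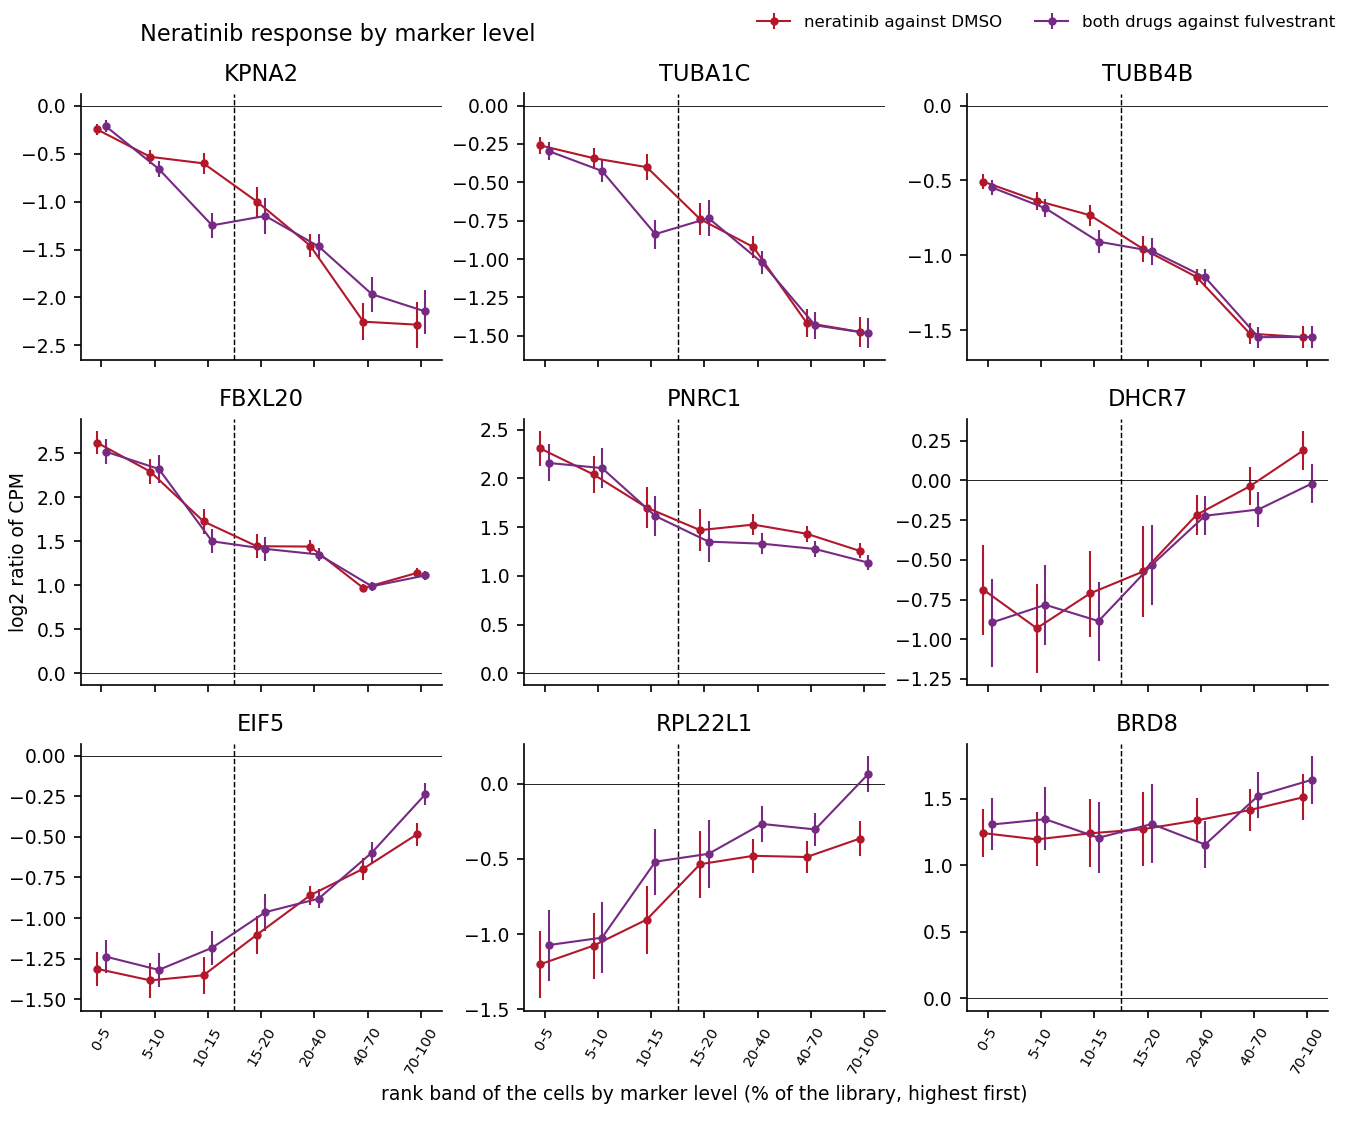
Log2 ratio of CPM for 9 genes in 7 bands of cells by rank of the marker level (highest first, in percent of the library), for neratinib against DMSO (red) and both drugs against fulvestrant (purple), with 95% counting intervals. The dashed line is the edge of the G2 and mitotic cells. In neratinib against DMSO, KPNA2 runs from -0.25 in the first band to -2.28 in the last, with TUBA1C and TUBB4B of the same shape, FBXL20 ends at 1.14, and BRD8 lies between 1.20 and 1.51.

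Cells in S phase, the same number per library taken from the other cells by an S phase list, show how far a response was shared with the neighbouring phase. FBXL20 had log2 ratios of 1.10 and 1.12 in S phase cells and of 1.16 and 1.13 in the remaining 10409 cells, so S phase cells did not share the stronger response, although the cells just outside the edge, at 1.44 and 1.41, had part of it. S phase cells were also close to the remaining cells for EGR1, with -3.84 and -3.97 in S phase cells and -3.90 and -3.85 in remaining cells. KPNA2 was at -1.44 and -1.60 in S phase cells, near the remaining cells at -1.71 and -1.63. EIF5 lay between, with -0.92 and -0.87 in S phase cells and -0.68 and -0.55 in remaining cells. YPEL2 was as high in S phase cells, at 2.18 and 1.60, as in the G2 and mitotic cells, at 1.86 and 1.57, and lower in remaining cells, at 1.10 and 0.95.

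With both drugs the G2 and mitotic cells showed the changes seen with each. Against DMSO 116 genes (2.49%) were higher and 499 (10.7%) lower, and 191 and 293 under median-of-ratios scaling. AREG and ZNF703 were past 1.5-fold lower with either drug alone and lower still with both. AREG was 13.0-fold lower with both drugs than with DMSO (4.31 against 55.8 CPM), 2.07-fold with fulvestrant and 4.88-fold with neratinib, and ZNF703 was 3.91-fold, 1.71-fold and 1.65-fold lower. MYC was 16.6-fold lower with both drugs, although 1.31-fold with neratinib alone, and TSKU 10.1-fold lower, although 1.33-fold with neratinib alone. CCND1 was 10.5-fold lower with both, and 1.23-fold with fulvestrant alone. In other cells AREG, MYC, TSKU and CCND1 were 7.59-fold, 12.1-fold, 6.99-fold and 10.2-fold lower with both drugs than with DMSO. The class difference was past 1.5-fold for 22 genes (0.472%) here. Of 24 measured estrogen receptor targets 16 were lower with both drugs than with DMSO in G2 and mitotic cells and 15 in other cells, with medians of -0.75 and -0.72 beside -0.16 and -0.18 over all genes. KLHL24 (6.69-fold), CREBRF (7.24-fold), HBP1 (5.397-fold), FBXL20 (4.90-fold) and FBXO32 (4.89-fold) were among the highest. The measured G2 and mitosis genes move with the genes that chose the cells. Of these 28, 1 was higher and 2 were lower with both drugs than with DMSO, with a median of 0.00.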

How the data were processed

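Droplet single-cell libraries of BT474 cells, 1 per group, were analysed. The authors deposited whole-number UMI counts per gene and barcode for all 4 libraries in 1 unfiltered matrix of 33538 genes, made with Cell Ranger 3.1.0 and hg19 per the submitters' processing notes; other barcode and gene fields are text. The library of a barcode was taken from the number at its end, matched to the number that starts each sample title. Counts were summed per class and library and scaled to a total of 1000000 UMIs, mitochondrial ones included, so a rise in these lowers every other gene. Ratios have exact conditional binomial intervals and class differences delta-method intervals, at 95% and for counting error only. Python 3.11.15, numpy 2.4.6, scipy 1.17.1, pandas 2.3.3 and matplotlib 3.10.9 were used, and the calculations were tested on simulated counts. The G2 and mitotic cells, the 14 gene lists and the alternatives in the closing section were chosen with earlier results of these data known. Genes were named by rule: a fixed set, the 8 highest and lowest ratios per drug, the greatest class differences, and the greatest ratios of each list. EIF5 and RPL22L1 were named after their values were seen, since their class differences passed 1.5-fold in both pairs. Results of 1 gene are not reported here. PIF1, KIF14, CENPE, NEK2, DLGAP5, FAM83D, UNG, CCNE2, MCM5 and MCM6 came from the highest and lowest ratios of G2 and mitotic cells over other cells. Doublets were kept and no caller was run. No genome coordinates of the deposited matrix were used.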

Additional observations from a re-analysis of the deposited data

How the results depend on the processing

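No paired analysis was possible because each group has 1 library, and no replicate could be left out. The counts of genes past 1.5-fold moved with the filter on low values. With a mean of at least 10 CPM, G2 and mitotic cells had, compared with DMSO, 24 such genes for fulvestrant, 1056 for neratinib and 1127 for both drugs, and for both drugs 34 compared with neratinib and 1080 with fulvestrant. With no filter the same comparisons had 2329, 4943, 5093, 2359 and 5051, and class differences past 1.5-fold in both pairs numbered 595 for fulvestrant and 801 for neratinib, where low counts set the ratios. With at most 20% mitochondrial UMIs the class differences numbered 1 for fulvestrant and 30 for neratinib, and the neratinib libraries keep the fewest cells there. With the top 10% of cells there was 1 for fulvestrant, with cells of 20000 to 45000 UMIs 2 for fulvestrant and 8 for neratinib, and with other cells from the lower 60% of the marker level 23 for neratinib. The last 2 settings were chosen after the data were seen, as was a filter on G2 and mitotic cells alone. FAM111B changed the sign of its class difference at 20% mitochondrial UMIs, to -0.062 for both drugs against DMSO and -0.19 for both drugs against fulvestrant. The cause of these moves was not tested. Of 6105 gene ratios under other settings 723 moved and 0 turned round. Of 770 list medians 111 moved and 0 turned round, and of 1320 class differences 130 moved and 2 turned round. A value counted as turned round only if it was past 1.5-fold in the main setting and then changed sign. Sign changes of smaller values, which include most list medians, were not counted. Genes with few UMIs in G2 and mitotic cells, such as FOS and EGR1 with neratinib, have the widest intervals, and differences between cultures cannot be told apart from the drugs with 1 library each.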
